A study of Mus musculus with 7 samples.

Results

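The adult globin genes and Bpgm, transcripts of the red-cell lineage, were followed in RNA from mouse femurs. The members were the alpha-globin genes Hba-a1 and Hba-a2, the beta-globin genes Hbb-bs and Hbb-bt, and Bpgm, which makes 5 of the 49671 genes in the deposited count table. Ahsp, the chaperone of free alpha-globin chains, was named by the same rule and was not analysed here. The members were selected on their counts, which separated TBI from control libraries, so their differences between groups are given as a description, without a test. The groups were 4 libraries from femurs of wild-type mice taken 3 days after a controlled cortical impact, a model of traumatic brain injury (TBI), and 3 libraries from wild-type mice labelled only as control, which the design text calls uninjured. Whole femurs were crushed, so each library holds RNA of bone, cartilage, marrow, blood and any muscle left on the bone. The labels do not say that each library came from a separate mouse, nor whether control mice had anesthesia or surgery, so the impact and the surgery around it cannot be separated.

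Hemoglobin carries oxygen as a tetramer of alpha and beta chains, each holding a heme group. Its mRNAs accumulate in the erythroblasts of the bone marrow and remain in reticulocytes, the young red cells that have lost their nucleus. Bpgm encodes bisphosphoglycerate mutase, which makes the small molecule that lowers the oxygen affinity of hemoglobin in red cells. In bulk RNA of this kind, fewer erythroid cells and less mRNA per cell cannot be told apart.

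The alpha genes and the beta genes are each a near-identical pair, which limits how reads can be assigned to one copy. In the coding sequences of GENCODE M21 on GRCm38, Hba-a1 and Hba-a2 differ at 1 of 426 bases and Hbb-bs and Hbb-bt at 1 of 441 bases, counted from the first base of the start codon and without the stop codon. The stretches around those differences are shown with the differing base in capitals, on chr11:32284323-32284363 and chr11:32297140-32297180 (plus strand) for the alpha pair and on chr7:103826672-103826712 and chr7:103812663-103812703 (minus strand) for the beta pair. The differences are C381T from Hba-a1 to Hba-a2 and C417T from Hbb-bs to Hbb-bt.
Hba-a1: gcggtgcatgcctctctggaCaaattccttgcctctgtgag
Hba-a2: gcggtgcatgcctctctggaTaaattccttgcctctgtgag
Hbb-bs: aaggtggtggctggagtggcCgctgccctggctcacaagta
Hbb-bt: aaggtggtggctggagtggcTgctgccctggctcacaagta
Over the longest coding transcripts, 67.5% of the 50-base windows of Hba-a1 and 86.9% of those of Hba-a2 also occur in the other alpha gene. For the beta pair the shares are 65.8% for Hbb-bs and 58.3% for Hbb-bt. No 50-base window of Bpgm occurs in an annotated transcript of another gene. No source used here gives the handling of reads that match both copies, so the sum of each pair is the firmer value and the split within a pair is uncertain.

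The globin promoters are shown as background on the members, and the Bpgm promoter beside them for comparison. A link between the promoter letters and the differences between the groups was not tested. The last 120 bases before the RefSeq start on GRCm38.p6 are shown with matches to the CCAAT box, the CACCC box, the TATAA box or the GATAA motif, on either strand, in capitals. They lie on chr11:32283552-32283671 (plus strand) for Hba-a1 and chr7:103827929-103828048 (minus strand) for Hbb-bs. For Hbb-bt they lie on chr7:103813924-103814043 (minus strand) and for Bpgm on chr6:34476236-34476355 (plus strand). The GENCODE M21 genes begin further upstream, so the stretches of Hba-a1, Hbb-bs and Bpgm lie within the GENCODE genes, and that of Hbb-bt partly so.
Hba-a1: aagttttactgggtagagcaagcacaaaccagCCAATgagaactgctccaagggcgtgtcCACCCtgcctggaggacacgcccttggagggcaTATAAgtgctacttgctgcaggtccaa
Hbb-bs: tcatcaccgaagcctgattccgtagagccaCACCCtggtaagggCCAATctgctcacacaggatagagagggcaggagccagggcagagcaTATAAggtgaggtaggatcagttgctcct
Hbb-bt: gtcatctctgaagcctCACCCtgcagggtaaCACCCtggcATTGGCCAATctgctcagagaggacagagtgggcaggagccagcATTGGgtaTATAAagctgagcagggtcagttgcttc
Bpgm: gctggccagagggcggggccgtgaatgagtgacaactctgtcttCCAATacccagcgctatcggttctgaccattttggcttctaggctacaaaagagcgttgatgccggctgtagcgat
The Hba-a2 window matched that of Hba-a1 at all 117 bases compared, at an offset of 3 bases between the annotated starts. The beta pair matched at 88 of 119 bases. In the full window of 250 bases before to 50 bases after the start, each globin promoter had at least one match to every one of the 4 motifs, and Bpgm had matches to CCAAT only. Of 32851 promoter windows of this length in the same table, 37.4% hold CCAAT, 57.5% CACCC, 24.9% TATAA and 25.4% GATAA, so each motif alone is common. No match shared a base with a match to another motif. The matches describe the letters and were not examined as binding sites.

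Total counts were 15461528 to 21783534 per library, with 22360 to 23424 genes detected. CPM stands for counts per 1000000 of the TMM-scaled library size. Across all genes, edgeR's quasi-likelihood test called 0 of 17144 genes at an adjusted p of 0.05 (0%), with 1261 (7.36%) at an unadjusted p under 0.05, and DESeq2 called 114.

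Both alpha-globin genes had less mRNA after TBI, with no overlap between the groups. Hba-a1 (ENSMUSG00000069919, chromosome 11, 32283511 to 32284465) had 8148, 9027, 7748 and 6193 CPM in TBI 1 to 4, against 13791, 12692 and 12570 CPM in controls 1 to 3. The highest injured library, TBI 2, lay 28.2% below the lowest control. The estimate was −0.74 ± 0.25 (SE) on the log2 scale, with TBI at 59.8% of the control mean. Hba-a2 (ENSMUSG00000069917, chromosome 11, 32296489 to 32297298) had 3031, 3869, 2966 and 2454 CPM in TBI 1 to 4, against 5841, 5860 and 5875 CPM in controls 1 to 3. The control libraries were almost level, with an SD of 0.29% of their mean, while the SD of the TBI libraries was 19.03% of theirs. Its log2 fold change was −0.93 ± 0.22, the lowest estimate of the 5 members.

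The beta-globin mRNAs had the same order of groups. Hbb-bs (ENSMUSG00000052305, chromosome 7, 103826534 to 103828096) is named Hbb-b1 in the deposited normalized table. It had 12945, 10618, 10506 and 9026 CPM in TBI 1 to 4, against 20569, 17160 and 17427 CPM in controls 1 to 3, and a log2 fold change of −0.77 ± 0.27. Hbb-bt (ENSMUSG00000073940, chromosome 7, 103812524 to 103813996) had 2482, 2072, 2105 and 1501 CPM in TBI 1 to 4, against 3957, 3604 and 3687 CPM in controls 1 to 3, and a log2 fold change of −0.88 ± 0.22. In both genes TBI 1 was the highest and TBI 4 the lowest injured library, and control 1 the highest control. For the alpha genes TBI 2 was the highest injured library instead.

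Bpgm, the enzyme gene, was lower by a similar amount (ENSMUSG00000038871, chromosome 6, 34476207 to 34505613). It had 442.1, 378.1, 443.9 and 400.4 CPM in TBI 1 to 4, against 831.6, 651.3 and 668.9 CPM in controls 1 to 3. The groups did not overlap, and here the SD was larger among the controls (13.9% of the mean) than among the TBI libraries (7.78%). The log2 fold change was −0.79 ± 0.15. The library with the least Bpgm, TBI 2, was the one with the most alpha globin among the injured.

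**Figure D1:**
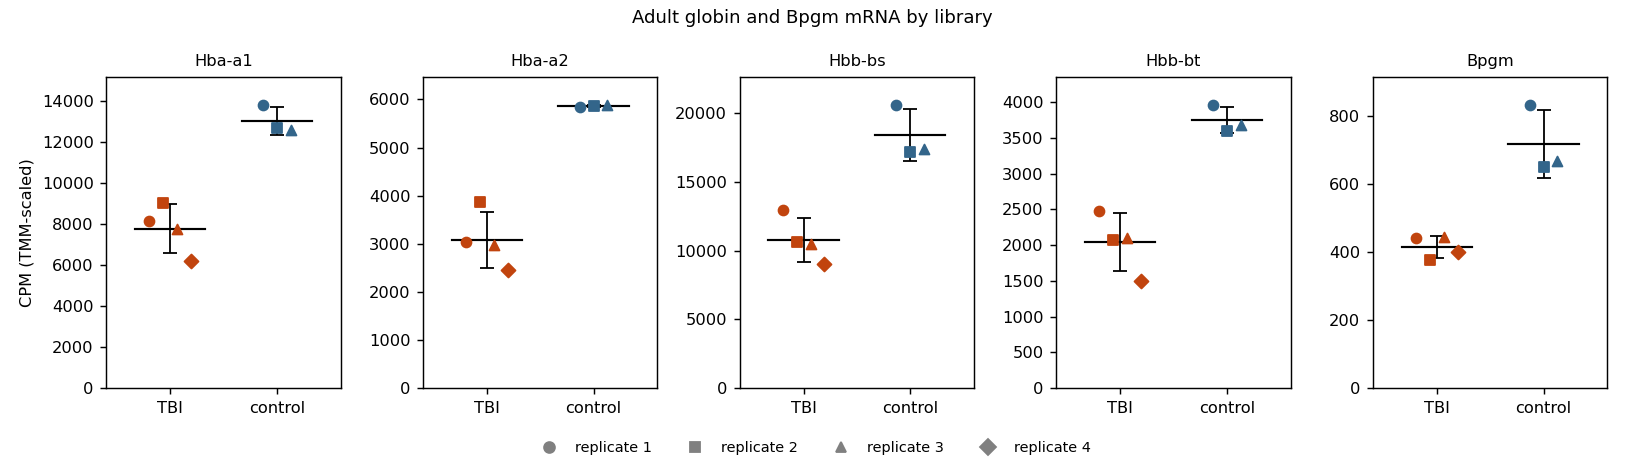
TMM-scaled CPM (y axis, starting at 0) of Hba-a1, Hba-a2, Hbb-bs, Hbb-bt and Bpgm in the 4 TBI and 3 control libraries; points are libraries, marker shapes their replicate numbers, lines the means and bars 1 SD. In every panel all TBI points lie below all control points, for Bpgm at 378.1 to 443.9 CPM in TBI against 651.3 to 831.6 CPM in controls.

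All 5 members had every TBI library below every control, a pattern found in 5.38% of the 17144 tested genes, while the opposite pattern was found in 2.66%. DESeq2 called the same 5 lower, against 0.672% of the genes it tested called lower and 0.0646% called higher. Since separation was the ground for choosing them, nothing is read from these counts. The deposited log2-like values, the authors' own scaling of the same counts, gave differences of −0.75 for Hba-a1, −0.94 for Hba-a2, −0.77 for Hbb-bs, −0.90 for Hbb-bt and −0.77 for Bpgm.

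Alpha and beta globin were lower to nearly the same extent when each pair was summed. The alpha sum was 10859 ± 1748 CPM in TBI libraries (SD, n = 4) and 18877 ± 656.5 CPM in control libraries (SD, n = 3). The difference in mean log2 was −0.81. The beta sum was 12814 ± 2009 CPM in TBI libraries and 22135 ± 2078 CPM in control libraries, a difference of −0.80. As a share of all counts, the 4 globin genes took 2.87%, 2.77%, 2.10% and 1.67% in TBI 1 to 4, against 4.74%, 4.04% and 3.91% in controls 1 to 3.

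The ratio of alpha to beta counts averaged 0.853 ± 0.121 in TBI libraries (SD, n = 4) and 0.856 ± 0.04897 in control libraries (SD, n = 3). It was 0.725, 1.02, 0.850 and 0.821 in TBI 1 to 4, against 0.800, 0.893 and 0.874 in controls 1 to 3. The groups overlapped, and TBI 2 was the only library with more alpha than beta counts. The lowest and the highest ratio of all 7 libraries were both in injured femurs. Per kilobase of exon the ratio was 0.844 ± 0.122 in TBI and 0.851 ± 0.04996 in controls. Globin counts per Bpgm count were also near each other, at 57.1 ± 8.70 in TBI and 57.5 ± 3.89 in controls.

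Within the pairs, the split between copies differed less than the sums. Hba-a2 made up 27.1%, 30.004%, 27.7% and 28.4% of alpha counts in TBI 1 to 4, against 29.8%, 31.6% and 31.9% in controls 1 to 3, so that TBI 2 lay above control 1. Hbb-bt made up 15.8% ± 1.08 of beta counts in TBI (SD, n = 4) and 16.98% ± 0.739 in controls (SD, n = 3), also with overlap. These shares depend on how reads of identical stretches were assigned, a step that was not tested.

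**Figure D2:**
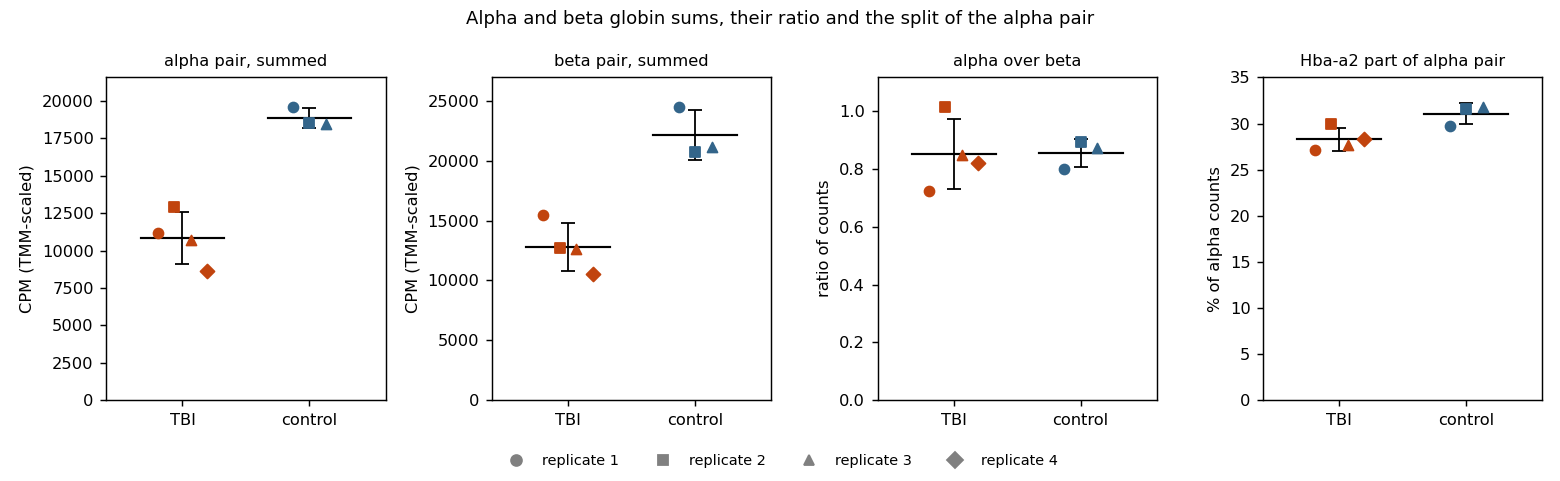
Summed alpha pair and summed beta pair in TMM-scaled CPM, the ratio of alpha to beta counts and the Hba-a2 percentage of alpha counts, with TBI left of control and all y axes starting at 0; points are libraries, lines the means, bars 1 SD. Both sums lie lower in all TBI libraries, while the ratio overlaps, at 0.725 to 1.02 in TBI against 0.800 to 0.893 in controls.

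Ranked per length, Hbb-bs was the most abundant member, followed by Hba-a1, Hba-a2, Hbb-bt and Bpgm, and this order held within each of the 7 libraries. The levels and order of single globin genes rest on the uncertain split of reads between the copies of a pair. The levels were computed as transcripts per 1000000 (TPM), from counts per kilobase of merged exons over all annotated genes. Hbb-bs stood at 27443 to 50397 TPM in TBI libraries, against 58855 to 78289 TPM in controls, where it ranked first among all genes in each library. In TBI libraries its rank by this measure ran from 1 to 4, with rank 4 in TBI 3 and TBI 4. Muscle genes took 10.5% and 12.9% of counts in those libraries. In TBI 1 and TBI 2 they took 3.14% and 4.88%, and in controls 2.62% to 8.01%. The part of muscle RNA in these ranks was not tested. Hba-a1 stood at 17810 to 32194 TPM in TBI and 40151 to 49646 TPM in controls. Hba-a2 had 8590 to 16801 TPM in TBI and 22847 to 25601 TPM in controls, and Hbb-bt had 4985 to 10555 TPM in TBI and 13603 to 16452 TPM in controls. Across TBI libraries the ranges of Hbb-bs and Hba-a1 overlapped, as did those of Hba-a2 and Hbb-bt, whereas in controls no neighbouring ranges overlapped. Bpgm, at 260.6 to 368.4 TPM in TBI and 483.5 to 677.5 TPM in controls, was far below all globins.

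Other genes of the globin family were mostly near the limit of detection. The theta-globin gene Hbq1a had 42, 32, 21 and 37 counts in TBI 1 to 4, against 79, 48 and 63 counts in controls 1 to 3. Its levels were 1.57 ± 0.382 CPM in TBI and 3.29 ± 0.269 CPM in controls, with a log2 fold change of −1.07 ± 0.26 (edgeR adjusted p = 0.423). The second theta gene, Hbq1b, had 28.5 ± 3.74 CPM in TBI and 35.7 ± 2.83 CPM in controls, with −0.32 ± 0.13 (edgeR adjusted p = 0.664). Neither passed the threshold in edgeR, though in both every TBI library lay below every control, as in 5.38% of all tested genes. DESeq2 called Hbq1a lower, against 0.672% of the genes it tested called lower. The embryonic genes Hba-x, Hbb-y and Hbb-bh1 had at most 13, 10 and 6 counts in any library, and Hbb-bh2 and the pseudogene Hbb-bh0 at most 4 and 2. These 5 genes were too low to be tested. Mb, the oxygen-storing myoglobin of muscle, was at 971.2 ± 408.3 CPM in TBI and 931.3 ± 363.0 CPM in controls, with overlapping groups, and its estimate changed sign with the scaling. Cygb, the globin of fibroblast-like cells, was at 18.7 ± 3.85 CPM in TBI and 20.1 ± 5.34 CPM in controls. Ngb, the globin of neurons, had at most 8 counts.

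Genes of the rest of the red-cell program had lower estimates too, with medians nearer to 0. The lists were chosen with earlier results of these data known, so counts from them are given as a description. Of 63 tested erythroid genes outside the members, 56 had a lower estimate after TBI, against 45.5% of all tested genes. Their median log2 fold change was −0.21, against 0.03 over all genes. The groups did not overlap, with TBI lower, in 12 of the 63 (5.38% of all genes). None of the 63 was called by edgeR. Its unadjusted p was under 0.05 in 9, all lower, against 7.36% of all tested genes in either direction. DESeq2 called 1 lower, Alas2, against 0.672% of the genes it tested. Single libraries moved the median in both directions. Without control 1, 40 of the 63 estimates were lower, with a median of −0.08, while without TBI 1 the median was −0.31, with 59 lower. Without TBI 4 the median was −0.14, with 54 of 63 lower.

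Heme synthesis, which supplies the iron-holding group of each globin chain, had 12 of 13 genes with a lower estimate and a median of −0.26. Alas2, the erythroid enzyme of the first step, was at 1133 ± 204.8 CPM in TBI and 1804 ± 242.5 CPM in controls, with a log2 fold change of −0.67 ± 0.20 (edgeR adjusted p = 0.521). Slc25a38, a mitochondrial glycine carrier, was at 117 ± 15.6 CPM in TBI and 144.2 ± 10.6 CPM in controls. Ppox, the oxidase near the end of the pathway, was at 390.2 ± 56.7 CPM in TBI and 496.7 ± 51.0 CPM in controls. In these 3 of the 13 genes the groups did not overlap, with TBI lower, as in 5.38% of all tested genes.

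The remodelling genes of the last steps of red-cell maturation had 10 of 10 lower estimates and the lowest median of the erythroid lists, −0.37. In 4 of the 10 every TBI library was below all controls, as in 5.38% of all tested genes. Tent5c, a cytoplasmic poly(A) polymerase, was at 386.8 ± 90.6 CPM in TBI and 611.7 ± 91.9 CPM in controls, with −0.66 ± 0.21. The ubiquitin ligase Mkrn1 was at 439.5 ± 60.2 CPM in TBI and 627.7 ± 72.7 CPM in controls, and Ube2o, which tags ribosomal proteins for removal in reticulocytes, was at 295.2 ± 44.2 CPM in TBI and 392.6 ± 51.7 CPM in controls. The fourth, Bnip3l, needed to clear mitochondria, was at 256.7 ± 26.6 CPM in TBI and 329.5 ± 47.4 CPM in controls, and is named here on account of its values.

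The red-cell membrane list had 15 of 18 lower estimates at a median of −0.18. Its leading genes by p were Kel, a blood-group antigen (−0.42 ± 0.17), the skeletal protein gene Epb41 (−0.43 ± 0.20) and the actin-bundling Dmtn (−0.34 ± 0.16). Redox and ion genes had 8 of 8 lower at −0.19, led by Gpx1, a glutathione peroxidase (−0.46 ± 0.20), with Hagh at −0.27 ± 0.14 and Cat, which encodes catalase, at −0.20 ± 0.14. Erythroid regulators had 11 of 14 lower at −0.13. Among them Epor, the erythropoietin receptor, was at 130.5 ± 22.02 CPM in TBI and 173.0 ± 12.6 CPM in controls, and Ldb1, a partner of Gata1 at globin enhancers, at 186.7 ± 26.6 CPM in TBI and 236.8 ± 15.5 CPM in controls. In these 2 of the 14 regulators every TBI library lay below every control, as in 5.38% of all tested genes. The same held for Kel, 1 of the 18 membrane genes, and for Gpx1 and Hagh, 2 of the 8 redox and ion genes. Bach1, a repressor released by heme, was at 0.21 ± 0.15. A list of 4 tested translation and chaperone genes had a median of −0.04 and overlapping groups in all 4, with Eif2ak1, the heme-regulated kinase that halts globin translation, at −0.10 ± 0.16, the chaperone Hspa8 at −0.06 ± 0.18 and Hspb11, a subunit of the intraflagellar transport complex and not known to act on globin, at −0.02 ± 0.19. The sign changed in 1 alternative for Eif2ak1, in 1 for Hspa8 and in 3 for Hspb11.

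**Figure D3:**
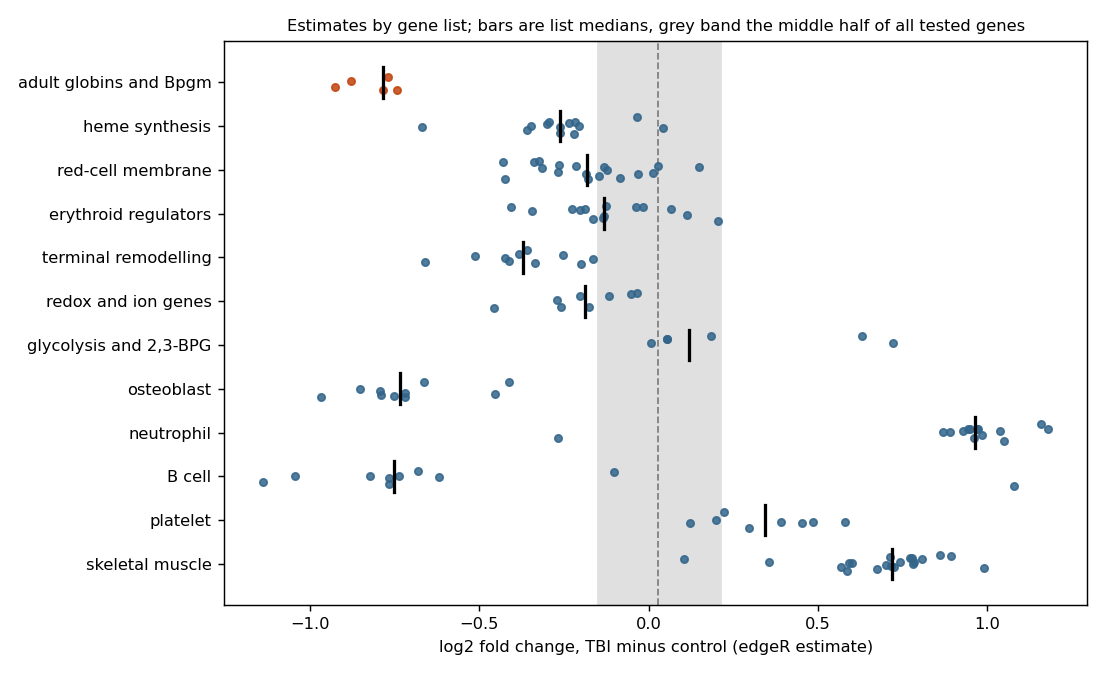
Log2 fold change, TBI minus control (x axis, edgeR estimates), of the 5 members (dark orange) and of the tested genes of erythroid and other cell lists (blue), 1 point a gene; black bars are list medians, the grey band spans the quartiles of all 17144 tested genes (−0.15 to 0.21) and the dashed line is their median. The members lie between −0.93 and −0.74, the erythroid lists have medians from −0.37 to −0.13.

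Set against the other erythroid genes of the same library, the globins and Bpgm were lower after TBI as well. The mean of the 4 globin genes stood 4.10, 4.35, 4.07 and 4.04 log2 units above the mean of the 63 erythroid genes in TBI 1 to 4, against 4.62, 4.81 and 4.88 in controls 1 to 3. For Bpgm the same difference was 0.52, 0.56, 0.65 and 0.80 in TBI 1 to 4, against 1.18, 1.15 and 1.25 in controls 1 to 3. Neither set of values overlapped between the groups. The mean of the erythroid genes itself was 8.07 ± 0.18 log2 CPM in TBI and 8.28 ± 0.20 log2 CPM in controls, and there the groups overlapped. Leaving out each library in turn, or TBI 3 and TBI 4 together, gave group differences of −0.70 to −0.54 for the globins and −0.66 to −0.53 for Bpgm. Because the members were chosen for this contrast, these differences have no test.

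**Figure D4:**
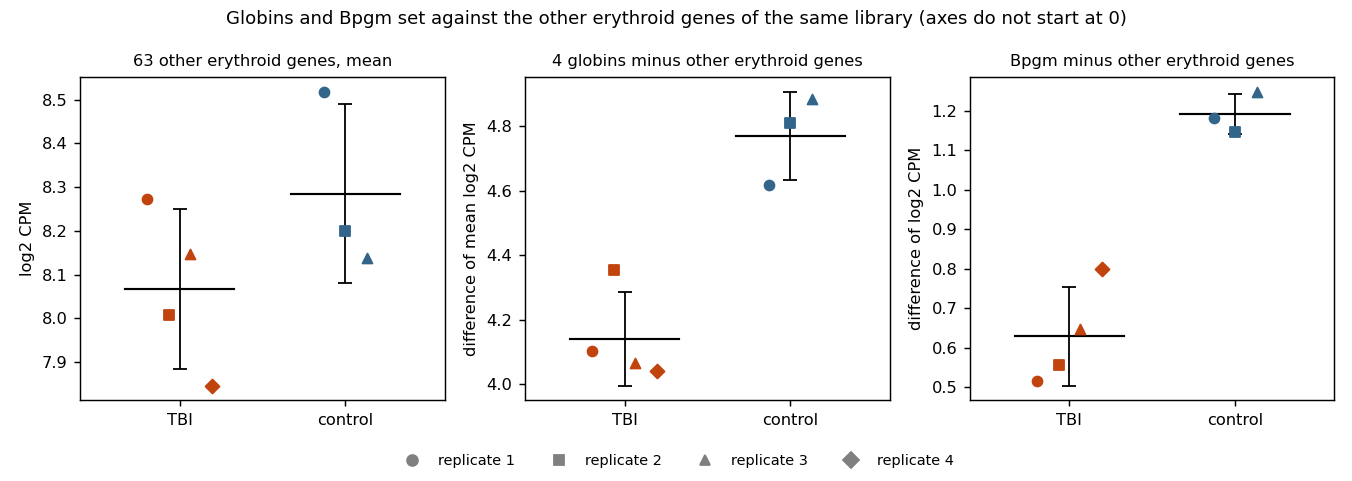
Mean log2 CPM of 63 other erythroid genes, and the level of the 4 globins and of Bpgm relative to that mean, in TBI (left) and control (right) libraries; points are libraries, lines the means, bars 1 SD, and the y axes do not start at 0. The erythroid mean overlaps between the groups, while the globins stand at 4.04 to 4.35 in TBI against 4.62 to 4.88 in controls.

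Of the listed enzyme genes of glycolysis and bisphosphoglycerate turnover other than Bpgm, all 6 had estimates above 0. Pgk1, the kinase of the neighbouring glycolytic step, was at 340.7 ± 153.6 CPM in TBI and 219.9 ± 66.9 CPM in controls. The mutase gene Pgam1 was at 31.8 ± 11.8 CPM in TBI and 28.0 ± 4.54 CPM in controls, and Pgam2, its muscle form, at 549.6 ± 348.1 CPM in TBI and 332.9 ± 162.6 CPM in controls. In both the groups overlapped. Minpp1, a phosphatase that can break down bisphosphoglycerate, was at 131.7 ± 20.1 CPM in TBI and 130.9 ± 22.3 CPM in controls. Pklr, the pyruvate kinase gene of liver and red cells, and Hk1, the red-cell hexokinase gene, had estimates of 0.05 ± 0.20 and 0.05 ± 0.22. None of the 6 was called in edgeR, 0 had an unadjusted p under 0.05, DESeq2 called 0, and each changed sign in at least 1 alternative. The difference between Bpgm and these genes was not tested.

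Genes whose levels followed the members most closely over the 7 libraries were mostly outside the erythroid lists. Likeness was the root-mean-square difference between centred log2 CPM profiles, over 10269 genes with a mean of at least 10 CPM, where the median gene stood at 0.47. The members themselves lay at 0.07 to 0.14 from their own mean. The 10 closest other genes lay at 0.11 to 0.16, and 1 of them, Alas2 at 0.15, is on an erythroid list. The closest were Cd109, a cell-surface protein, and Rec114, known from meiosis, both at 0.11, and the chemokine scavenger receptor Ackr4 at 0.14. The proteoglycan Acan and the collagen chain Col9a2 of cartilage were both at 0.14. Nckap5l, the cartilage-linked Chadl, the collagen-modifying Crtap and the bone matrix gene Sparc made up the rest, at 0.15 to 0.16. Their log2 fold changes ran from −0.90 for Col9a2 to −0.62 for Ackr4, Nckap5l and Crtap. Much of this likeness is the difference between the groups.

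Around the globin clusters, expressed neighbours had their own values. Within 100 kb of a member start 33 other genes are annotated and 10 were tested, among them both theta genes. Nprl3, which houses the enhancers of the alpha cluster, was at 64.6 ± 7.79 CPM in TBI and 73.2 ± 8.44 CPM in controls, with overlapping groups and a log2 fold change of −0.18 ± 0.13. Mpg, a DNA glycosylase gene, was at 24.2 ± 4.94 CPM in TBI and 31.5 ± 2.23 CPM in controls, without overlap. Rhbdf1 stood at −0.38 ± 0.17, Snrnp25 at −0.14 ± 0.15 and Sh3pxd2b at −0.65 ± 0.19. Il9r, the interleukin receptor gene, was at 1.65 ± 2.06 CPM in TBI and 1.01 ± 0.12 CPM in controls. Near Hbb-bs the tested gene was the pseudogene Dnajc19-ps (0.14 ± 0.42), and near Bpgm it was Akr1b10 (0.21 ± 0.26). None of the 10 passed the threshold in edgeR. Of these 10, Hbq1a, Hbq1b, Mpg and Sh3pxd2b had TBI libraries that were all below the controls, 4 of 10 against 5.38% of all tested genes.

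Markers of other cell types moved with the groups in part. All 10 osteoblast genes had lower estimates, with a median log2 fold change of −0.74, near those of the members. In 7 of the 10 the groups did not overlap, with TBI lower, as in 5.38% of all tested genes. DESeq2 called 4 lower, against 0.672% of the genes it tested. edgeR called 0, with 9 at an unadjusted p under 0.05, against 7.36% of all tested genes in either direction. The mean of that list was 7.42 to 7.90 log2 CPM in TBI against 8.02 to 8.65 in controls, without overlap, while its share of counts, 0.944% to 1.62% in TBI against 1.61% to 2.89% in controls, overlapped. All 20 muscle genes had higher estimates, with a median of 0.72, and they took 3.14%, 4.88%, 10.5% and 12.9% of counts in TBI 1 to 4, against 2.62%, 4.86% and 8.01% in controls 1 to 3. With the muscle genes left out of the total, the 4 globins took 1.92% to 2.97% in TBI and 4.24% to 4.87% in controls, still without overlap. The neutrophil list took 0.24% to 1.48% of counts in TBI and 0.38% to 0.61% in controls, with 13 of 14 estimates higher and a median of 0.97. The platelet list took 0.11% to 0.24% in TBI and 0.10% to 0.21% in controls, with 8 of 8 estimates higher and a median of 0.34. For B cells, 9 of 10 estimates were lower, with a median of −0.75, and the mean of the list was 4.06 ± 0.86 log2 CPM in TBI and 4.81 ± 0.37 log2 CPM in controls, with overlap. The summed share of that list ran the other way, at 0.03% to 0.19% in TBI and 0.05% to 0.06% in controls, and Ighm, the gene with most counts in it, was at 691.9 ± 622.5 CPM in TBI and 327.7 ± 58.2 CPM in controls. No gene of these 5 lists was at 0 counts in any library. The part of osteoblast, neutrophil, platelet and B-cell content in the globin values was not tested.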

How the data were processed

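The comparison used 7 messenger RNA libraries from mouse femurs, 4 TBI and 3 control. The authors deposited raw counts per Ensembl gene, and a second table of log2-like normalized values for 18549 genes, which served only as a check. Per the submitters' processing notes, STAR, DESeq and GRCm38 were used; which program counted reads, with what strand setting, and what it did with multi-mapping reads is not given in the sources used. Where the mean count was 1000 or more, the deposited log2 values lay within a median of 0.0295 of the log2 of counts over size factors. GENCODE M21 matched 49326 of 49671 identifiers (99.3%).

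Counts were filtered with filterByExpr, TMM-scaled and fitted with edgeR 4.0.16 (glmQLFit, glmQLFTest; R 4.3.3; Benjamini-Hochberg over 17144 genes, threshold 0.05), and the standard error came from the estimate and its F statistic. DESeq2 1.42.0 and limma 3.58.1 were alternatives; DESeq2 gave no adjusted p for 1664 genes. Log2 CPM used a prior count of 0.5. The procedure was tested on simulated counts. The members and lists were chosen with earlier results of these data known. Named genes were the members and the 10 closest in profile with a mean of at least 10 CPM. The tested globin, glycolysis and bisphosphoglycerate genes, the 3 smallest p of each other list, and tested neighbours within 100 kb were also named. Predicted genes were not named. Promoters came from RefSeq (GRCm38.p6), which matched 5 members. No libraries looked like one library deposited again, with a chi-square per degree of freedom of 27.2 or more in each same-group comparison. P-values set the group difference against the spread between libraries of a group, which the labels do not say were separate mice.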

Additional observations from a re-analysis of the deposited data

Results flagged for a closer look

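In the 4 TBI libraries, 1 library stood apart from the other 3 for 5 of the named genes by Dixon's criterion, which chance meets in about 1 in 20 groups; 74 sets of values were examined, and none of the flagged sets was a member. TBI 4 was the lowest for Epor (97.7 CPM), Slc25a38 (93.7 CPM) and Minpp1 (101.8 CPM). TBI 1 was the highest for Col9a2 (126.2 CPM) and for Il9r (4.73 CPM).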

How the results depend on the processing

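The fold changes of the 5 members, the alpha, beta and 4-globin sums and the globin share of counts kept their sign under every alternative run for them. The alpha to beta ratio moved by less than the SD of the TBI libraries (0.121) under every alternative run for it. Without TBI 2 its difference went from −0.0029 to −0.0573, a move larger than the SD of the controls (0.04897). DESeq2 called 114 genes against 0 in edgeR, with 0.672% of the genes it tested called lower and 0.0646% higher. Among the 114 were 10 of the 45 named genes that are no members. Most of these were named for their likeness to members chosen on this contrast, so nothing is read from that count. A threshold of 0.1 or any other alternative left the number of called genes at 0. Leaving out each library in turn gave 0 called genes throughout, and log2 differences of −0.91 to −0.71 for the alpha sum, −0.89 to −0.71 for the beta sum and −0.86 to −0.70 for all 4 globins. The globin share differed by −2.05 to −1.62 percentage points and the alpha to beta ratio by −0.0573 to 0.0399. The erythroid median lay between −0.31 without TBI 1 and −0.08 without control 1. Whether the replicate numbers pair the libraries was not settled. Correlations of deviations between same-numbered libraries were 0.53, −0.02 and 0.30. TBI 1 was closest to control 1 and TBI 3 to control 3, while TBI 2 was closest to control 1. With the replicate block 0 genes were called, the 4-globin sum differed by −0.70 and the erythroid median was −0.14. TBI 4 has no same-numbered control. These values therefore add little to those without TBI 4, which were also −0.70 and −0.14. Precision rests on 3 and 4 libraries; low counts keep the embryonic globins and Ngb from being tested and leave Hbq1a (21 to 79 counts) and Il9r (8 to 109 counts) less precise.

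Signs changed 41 times among 14 named genes that edgeR did not call, and the cause was not tested. Without TBI 3 and TBI 4 together, Mb was at −0.48, Pgam2 at −0.35, Pgk1 at −0.083, Akr1b10 at −0.21 and Dnajc19-ps at −0.055. On total counts, Mb was at −0.034, Minpp1 at −0.050, Pklr at −0.0055 and Hk1 at −0.00089. With the globins left out of the total, Mb was at −0.063, Minpp1 at −0.077, Pklr at −0.033 and Hk1 at −0.028. Minpp1 was at −0.032 with upper quartile scaling and −0.013 without muscle in the total. With the replicate block Mb was at −0.20 and Akr1b10 at −0.0069. Leaving out 1 library in turn gave −0.22 to 0.31 for Mb, −0.30 to 0.077 for Cygb, −0.034 to 0.34 for Pgam1, −0.067 to 0.16 for Minpp1, −0.043 to 0.20 for Pklr, −0.095 to 0.29 for Hk1, −0.20 to 0.011 for Eif2ak1, −0.15 to 0.11 for Hspa8, −0.0898 to 0.030 for Hspb11, −0.67 to 1.04 for Il9r, −0.014 to 0.38 for Akr1b10 and −0.14 to 0.50 for Dnajc19-ps.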
